A study of Mus musculus with 6 samples.

Results

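The genes described here are Pltp, Apoe, Abca1, Abcg1, Nr1h2, Nr1h3, Mylip and Apod, 8 of the 31053 genes in the count tables, each found under 1 gene ID by its symbol. They belong to the export of cholesterol and phospholipid from cells. The set was chosen on the difference of Pltp between aged and young mice in fibroblasts of these same libraries, to see whether other targets of the liver X receptors (LXRs) moved with it. The age values of Pltp are therefore given as a description, with no test. The other 7 genes were tested in fits over all genes, though they too were chosen with earlier results of these data known.

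LXRs are nuclear receptors that bind DNA with a retinoid X receptor partner and are activated by oxysterols, which form when cells hold much cholesterol. Nr1h3 encodes LXR alpha and Nr1h2 encodes LXR beta. Among the classic target genes, Abca1 and Abcg1 encode membrane transporters that pass cholesterol to acceptors, Apoe encodes an apolipoprotein that takes it up, Pltp encodes the phospholipid transfer protein of lipoproteins, and Mylip encodes a ubiquitin ligase that limits lipoprotein uptake. Apod encodes a small secreted lipocalin that carries lipids and is not an apolipoprotein of the Apoe family by sequence. In adipose tissue, stored cholesterol is high, and both adipocytes and stromal cells export it.

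The libraries were made from CD45-depleted stromal vascular cells of inguinal white adipose tissue (iWAT) of C57BL/6 mice, with 1 droplet library for each age and temperature. Young mice were 9 weeks old and aged mice 57 weeks old. All had first been kept at 30 °C for 3 weeks, after which they stayed at 30 °C (thermoneutral, TN), were moved to 6 °C for their final 3 days (3D cold) or lived at 6 °C for 14 days (14D cold). The mice were male, and the inguinal lymph node had been removed. The study's cell isolation methods report no pooling of mice unless stated, and its single-cell section states none. How many mice gave each library is not given in the sources used here, so the 3 temperatures of an age are the only replicates of that age. Every p-value below measures the spread among these libraries.

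The files held 68103 barcodes, of which 57326 passed the filters. Total UMI counts were 87219354 to 88508349 in the young libraries and 52068837 to 74590296 in the aged ones. The aged 14D library stood apart, with a median of 2588 UMIs per barcode against 6232 to 8954 in the others, so its effect is stated where it moves a value. Of all barcode sequences, 524 occurred in more than 1 library, between 30 and 44 for each pair. Cells were assigned by marker genes to 3 classes of adipocyte stem and progenitor cells (ASPCs), namely 22382 Dpp4+ fibroblasts, 20414 Icam1+ preadipocytes and 2992 Cd142+ fibroblasts, and to 3843 endothelial cells, 854 smooth muscle cells and pericytes (SMC/pericytes) and 233 immune cells. Of the cells in the ASPC classes, 90.4%, 86.0% and 80.7%, in that order, fell into a Leiden cluster that carried the same name, and 10.5% lay within 0.1 of the score that divides the classes. The aged 14D library gave 4667 of the 5331 cells of 1 cluster that carried no class name, with a median of 1581 UMIs. The other libraries gave 108 to 170 each. Fibroblasts between classes were 18.2% of the kept cells of the aged 14D library and 6.05% to 6.96% of those of the others. The aged TN library also stood apart in these clusters. Of the 2 large Icam1+ clusters it had 183 cells in one and 3720 in the other, where the other libraries had 991 to 2707 and 722 to 1068, and it gave 1155 of the 1242 cells of 1 Dpp4+ cluster. Of the 2 largest endothelial clusters it had 0 cells in one and 1079 in the other. Age values within these classes therefore compare cells of partly different clusters, and those that changed without this library are named with their result. Schwann cells and lymphatic endothelial cells had under 20 cells in some libraries and are not compared. Levels of single genes are CPM, in which UMIs are scaled to the summed UMIs of the class in that library, adjusted by a normalization factor (TMM). Summed levels of marker lists are CPM without that factor, so the 2 scales differ somewhat. A lower level can come from fewer expressing cells or from less RNA in each, which the share of cells with a UMI describes.

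Pltp lies on chromosome 2 (164839518 to 164857711, minus strand, GRCm38, the build of the files) and Abca1 on chromosome 4 (53030787 to 53159895, minus strand). Their promoters are shown because Pltp chose the set and Abca1 was the one other member that passed the age test in each ASPC class. LXRs bind a pair of hexamer repeats in the same direction with 4 bases between them (DR4). Each sequence holds the 250 bases before the start site, 5′ to 3′ on the strand of the gene, from RefSeq on GRCm38.p6, and the capitals mark the 16 bases most like a DR4 of AGGTCA or AGTTCA on either strand.
Pltp, chr2:164857709-164857958: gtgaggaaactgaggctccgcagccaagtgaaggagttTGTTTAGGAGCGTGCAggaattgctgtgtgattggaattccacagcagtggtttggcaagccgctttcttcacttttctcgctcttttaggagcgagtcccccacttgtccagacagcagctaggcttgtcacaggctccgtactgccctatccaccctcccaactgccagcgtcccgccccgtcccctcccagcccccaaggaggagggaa
Abca1, chr4:53159896-53160145: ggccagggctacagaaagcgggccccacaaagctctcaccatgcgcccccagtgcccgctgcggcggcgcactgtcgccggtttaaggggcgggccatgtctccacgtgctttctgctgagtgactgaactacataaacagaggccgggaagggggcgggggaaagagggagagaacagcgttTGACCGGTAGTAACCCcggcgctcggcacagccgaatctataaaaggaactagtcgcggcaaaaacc
The marked stretch of Abca1 begins 67 bases before the start site, reads on the opposite strand and differs from the DR4 at 3 of the 12 bases of its repeats. That of Pltp begins 212 bases before the start site and differs at 4. With at most 1 mismatch allowed, the rule used for the search, none of the 10 windows of 300 bases found for 7 of the members, all but Abcg1 (250 before and 50 after the start site) held a DR4, against 0.621% of 32851 windows of all genes. At so low a share, 0 of 10 is likely for any genes and does not tell whether the members lack such sites. At most 3 mismatches, a limit added after the search, occurred in 42.6% of all windows, so the match in Abca1 is a description of its letters only.

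Pltp was higher in every aged library than in every young library in the 3 ASPC classes. In Dpp4+ fibroblasts it stood at 16.5, 12.9 and 19.6 CPM in the young TN, 3D and 14D libraries and at 131, 147 and 137 CPM in the aged ones. In Icam1+ preadipocytes the young libraries gave 143, 106 and 158 CPM and the aged 203, 250.3 and 315 CPM. Cd142+ fibroblasts held 153, 173 and 150.0 CPM in young and 452, 574 and 618 CPM in aged mice. The ages did not overlap in any of these classes, and the young level in Dpp4+ fibroblasts was far below that of the others. The fitted log2 fold change of aged over young was 3.09 ± 0.12 (SE, n = 3 libraries of each age) in the Dpp4+ class, 0.91 ± 0.12 in the Icam1+ class and 1.78 ± 0.10 in the Cd142+ class, 3.25, 0.87 and 1.66 without the aged 14D library, and 3.14, 1.12 and 1.89 without the aged TN library. The gap in Pltp between Icam1+ preadipocytes and Dpp4+ fibroblasts was 3.07 on the log2 scale over the young libraries and 0.85 over the aged ones.

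**Figure D1:**
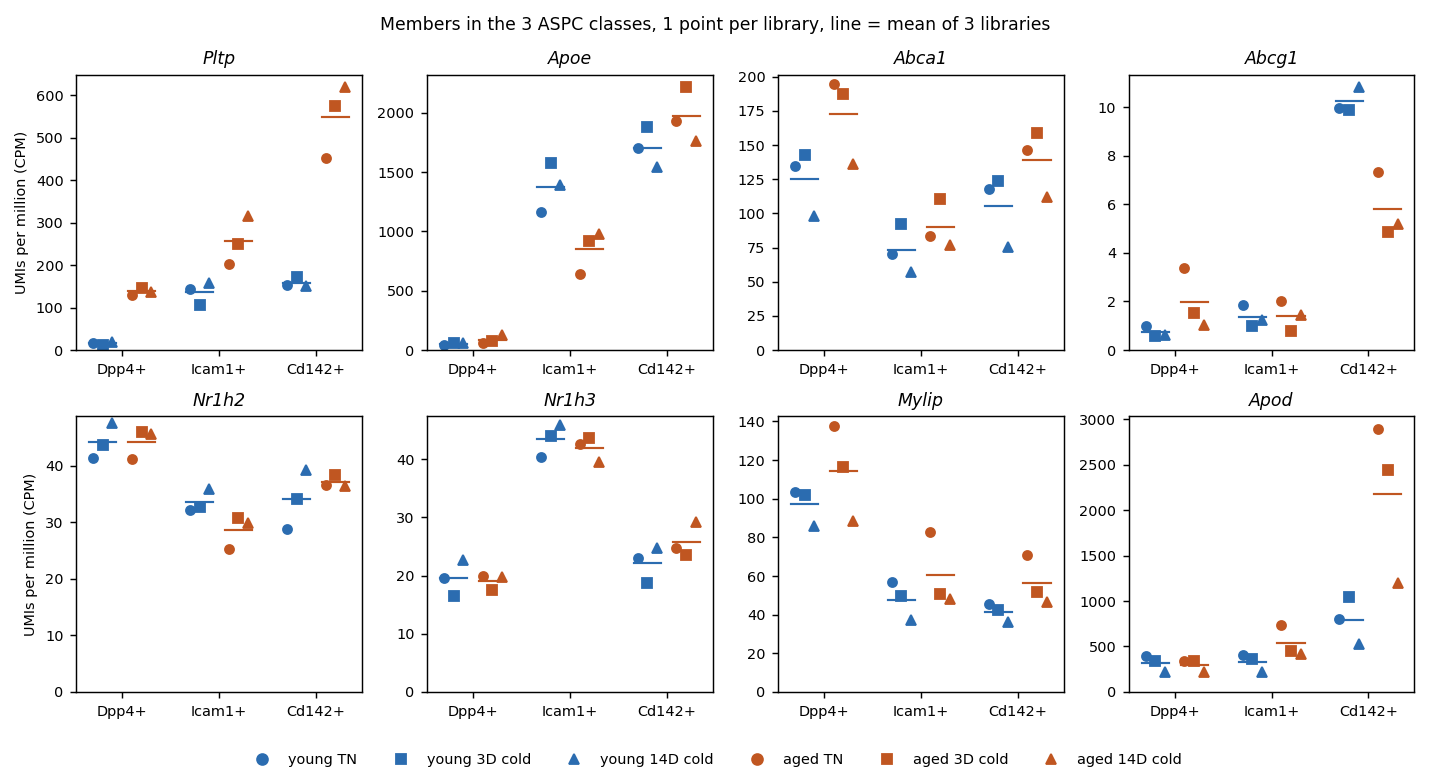
CPM (linear axis from 0, a scale of its own for each gene) of each member in the 3 ASPC classes, with 1 point per library, young in blue and aged in orange, and a line at the mean of the 3 libraries of an age. Pltp is higher in aged libraries in each class, Apoe is lower in aged Icam1+ preadipocytes, and Apod is high in aged Cd142+ fibroblasts.

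More cells held Pltp in aged libraries. With each cell thinned to 2000 UMIs, a Pltp UMI was found in 2.71%, 2.50% and 3.64% of young Dpp4+ fibroblasts and in 18.1%, 21.2% and 22.3% of aged ones. The mean share was 21.4% in young and 36.3% in aged Icam1+ preadipocytes, and 21.9% and 53.3% in Cd142+ fibroblasts. Among cells with a UMI, the mean number of Pltp UMIs was 1.08 in young and 1.35 in aged Dpp4+ fibroblasts, and 1.54 and 2.07 in Cd142+ fibroblasts. Schwann cells, a class in which the gene was near 0, held 1 Pltp UMI in 125 cells, with library medians of 2168 to 3667 UMIs per cell against 5789 to 9755 in Dpp4+ fibroblasts before thinning. Without thinning, the difference in share was 32.0 percentage points in Dpp4+ fibroblasts against 17.6 thinned.

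Outside the ASPC classes, Pltp was also higher in aged endothelial cells, at 271, 272 and 215 CPM in the young TN, 3D and 14D libraries and 439.8, 399.7 and 336 CPM in the aged ones. The ages did not overlap there, and the fitted log2 fold change was 0.63 ± 0.08. In SMC/pericytes the aged and young libraries overlapped (53.3 to 92.4 CPM young, 90.3 to 132 CPM aged). The immune cells, of which a library held only 24 to 54, gave 309.7 to 563 CPM in young and 369 to 1155 CPM in aged mice, again overlapping. Their summed level of 11 macrophage genes also ranged widely, from 4393 to 8790 CPM in young and from 5159.6 to 15497 CPM in aged libraries, and its part in these levels was not tested.

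**Figure D2:**
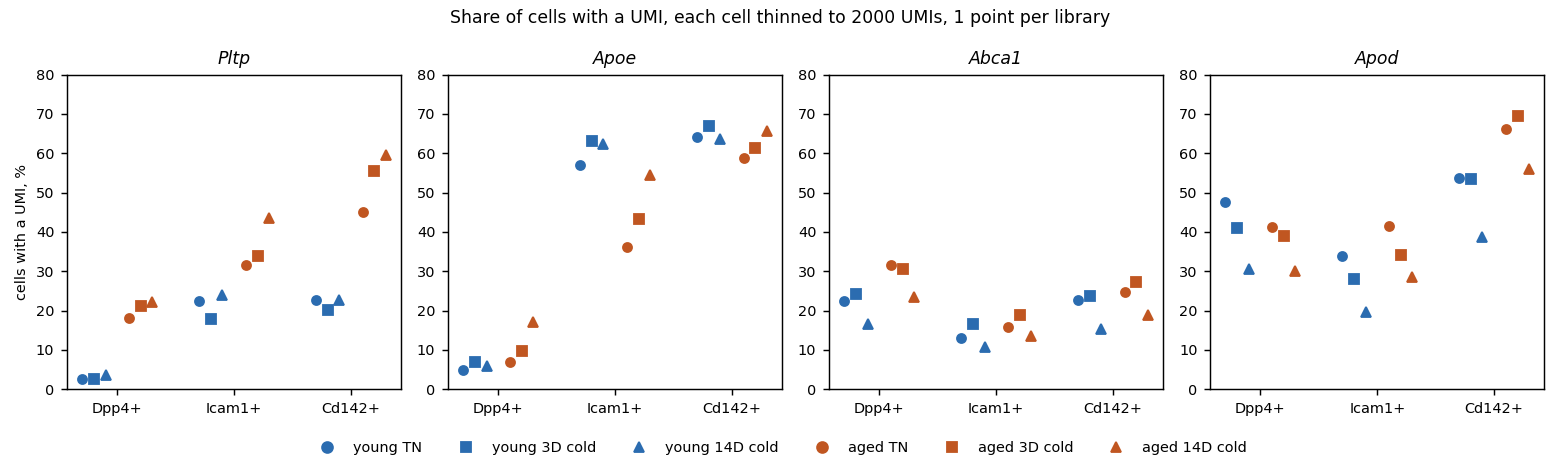
Percent of cells with at least 1 UMI of Pltp, Apoe, Abca1 or Apod in each ASPC class after thinning every cell to 2000 UMIs, with 1 point per library, young in blue and aged in orange. The Pltp share is 2.50% to 3.64% in young and 18.1% to 22.3% in aged Dpp4+ fibroblasts, and the Apoe share is lower in each aged library of Icam1+ preadipocytes.

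The receptors themselves showed no change with age that passed the test in any of the 5 classes tested. Nr1h2 (chromosome 7, 44549616 to 44553951) stood at 41.4 to 47.6 CPM in young and 41.2 to 46.0 CPM in aged Dpp4+ fibroblasts. Its log2 fold change there was 0.00 with a 95% interval of -0.13 to 0.13. In Icam1+ preadipocytes Nr1h2 was at 32.2, 32.7 and 35.9 CPM in young and 25.2, 30.8 and 30.0 CPM in aged libraries. These did not overlap, but the difference of -0.23 ± 0.07 had an adjusted p of 0.0797 (edgeR quasi-likelihood test). It passed in 2 of 15 alternatives, by Leiden clusters (-0.28, 0.0357) and with low-count genes kept (0.0446).

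Nr1h3 (chromosome 2, 91184061 to 91202834) was measured at 16.5 to 22.7 CPM in Dpp4+ fibroblasts, 39.5 to 45.9 CPM in Icam1+ preadipocytes and 18.6 to 29.2 CPM in Cd142+ fibroblasts over the 6 libraries. Its log2 fold changes with age were -0.04, -0.05 and 0.22, with intervals of -0.21 to 0.14, -0.21 to 0.12 and -0.08 to 0.53. The aged and young libraries overlapped in the 3 classes. By class, Nr1h3 was highest in SMC/pericytes, at 94.9 to 242 CPM, and next in Icam1+ preadipocytes, and neither range overlapped the one below it. Icam1+ preadipocytes held more Nr1h3 than Dpp4+ fibroblasts in 6 of 6 libraries, by 1.15 ± 0.15 (SD) on the log2 scale.

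Of the 7 members other than Pltp, 3 passed the age test in Dpp4+ fibroblasts, all higher in aged mice, where 15.7% of the 13398 genes tested passed and 7.54% were higher and 8.17% lower. In Icam1+ preadipocytes 3 passed, 2 higher and 1 lower, beside 12.4% of 13637 genes (6.74% higher, 5.62% lower). In Cd142+ fibroblasts 3 passed, all higher, beside 8.35% of 10403 genes (4.1% higher, 4.25% lower). The median log2 fold change of the 7 was 0.21, 0.02 and 0.22 in these classes, where the median of all genes was 0.00. The members were chosen with earlier results of these data known. These counts are therefore a description, and no test set them against the shares of all genes. All 8 members passed the filter on low counts in each class. Without a temperature term the age tests of all called members but Apod in Cd142+ fibroblasts missed the threshold.

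Among the transporters, Abca1 was modestly higher in aged mice in the 3 ASPC classes. In Dpp4+ fibroblasts it was at 135, 143 and 98.0 CPM in the young TN, 3D and 14D libraries and at 195, 187 and 136 CPM in the aged ones. In Icam1+ preadipocytes the values were 70.4, 92.5 and 56.9 CPM in young and 83.3, 111 and 76.5 CPM in aged mice. Cd142+ fibroblasts gave 118, 123 and 75.2 CPM in young and 146, 159 and 112 CPM in aged mice. The ages overlapped in each class. In Dpp4+ and Cd142+ fibroblasts the overlap came from the low aged 14D library. In Icam1+ preadipocytes the aged TN library also lay below the young 3D one. At each temperature the aged library was the higher one in each class. The log2 fold change was 0.46 ± 0.06 in the Dpp4+ class (adjusted p = 0.000756), 0.31 ± 0.06 in the Icam1+ class (0.018) and 0.41 ± 0.09 in the Cd142+ class (0.018), by edgeR's quasi-likelihood test. It did not pass in Icam1+ preadipocytes without either 3D library (adjusted p = 0.114 to 0.121, edgeR), nor in Cd142+ fibroblasts by DESeq2 (0.125) or with cells thinned to 2000 UMIs (0.386).

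The rises of Abca1 were not shown to differ between classes. The age effect in Icam1+ preadipocytes minus that in Dpp4+ fibroblasts was -0.16, with an interval of -0.40 to 0.09. At 2000 UMIs per cell, the Abca1 share in Dpp4+ fibroblasts was 16.6% to 24.4% in young and 23.5% to 31.6% in aged libraries, beside 1.05% to 5.56% in SMC/pericytes, the class with the lowest level. Among the classes compared, Abca1 had its highest mean in Dpp4+ fibroblasts (149 CPM), which exceeded Icam1+ preadipocytes in 6 of 6 libraries. The few lymphatic endothelial cells, 5 to 18 in a library and not compared, held Abca1 at 307 to 767 CPM on 225 UMIs. In endothelial cells and SMC/pericytes its age difference did not pass (0.24 ± 0.10 and 1.07 ± 0.32 on the log2 scale, the second resting on 98 UMIs).

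Abcg1 (chromosome 17, 31057675 to 31117988) was scarce in fibroblasts, with 195, 234 and 144 UMIs in all cells of the Dpp4+, Icam1+ and Cd142+ classes. In Dpp4+ fibroblasts it was at 0.987, 0.577 and 0.632 CPM in young and 3.36, 1.52 and 1.02 CPM in aged libraries. In Cd142+ fibroblasts it was at 9.98, 9.89 and 10.8 CPM in young and 7.34, 4.86 and 5.20 CPM in aged libraries. The ages did not overlap in either class, and the aged libraries were the higher ones in the first and the lower ones in the second. The age effect was 1.35 ± 0.27 in Dpp4+ fibroblasts (adjusted p = 0.00964, edgeR) and -0.82 ± 0.27 in Cd142+ fibroblasts, which did not pass (0.08) but was -1.04 and passed without the aged TN library (0.0428) and passed with low-count genes kept (0.0315). Without either TN library the first was 1.06 and no longer passed (0.091 to 0.102). A UMI of Abcg1 was found in 0.0509% to 0.751% of Dpp4+ fibroblasts at 2000 UMIs, near the level of a single UMI, against 4.11% to 7.09% of endothelial cells.

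Apoe (chromosome 7, 19696109 to 19699188), the apolipoprotein, was the member that was lower in aged Icam1+ preadipocytes. In Icam1+ preadipocytes it stood at 1163, 1581 and 1389 CPM in the young TN, 3D and 14D libraries and at 640.0, 922 and 981 CPM in the aged ones. Every aged library was below every young one. The fall was 0.71 ± 0.09 on the log2 scale (log2 fold change -0.71, adjusted p = 0.00257, edgeR), and it ranged from -0.82 to -0.64 over the 15 alternatives. The share of Icam1+ preadipocytes with an Apoe UMI at 2000 UMIs was 57.1%, 63.1% and 62.4% in young and 36.3%, 43.2% and 54.6% in aged libraries, and cells with a UMI held a mean of 4.59 in young and 3.83 in aged mice. The two-sided exact permutation p of the share was 0.1, the smallest that 3 libraries against 3 can give.

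In Dpp4+ fibroblasts Apoe was far lower and went the other way, at 41.2, 62.3 and 55.7 CPM in young and 61.5, 78.2 and 126 CPM in aged libraries. The log2 fold change was 0.70 ± 0.13 (adjusted p = 0.0074, edgeR), the ages overlapped, and without the aged 14D library it was 0.45. DESeq2 gave an adjusted p of 0.0522. The share of Dpp4+ fibroblasts with an Apoe UMI was 4.82% to 6.93% in young and 6.99% to 17.2% in aged libraries. It was below that in SMC/pericytes of the same library (10.3% to 17.0%, at the same depth per cell) except in the aged 14D library, at 17.2%. SMC/pericytes, at 98.8 to 227 CPM, were not shown to lack Apoe. These low levels are therefore read neither as expression in Dpp4+ fibroblasts nor as its absence, which was not tested. Red blood cell RNA moved with age in the same class: its 5 genes all passed as higher, with sums of 3.56 to 148 CPM in young and 128 to 587 CPM in aged libraries, and its part in the Dpp4+ values was not tested.

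Cd142+ fibroblasts held the most Apoe among the ASPC classes, at 1703, 1877 and 1539 CPM in young and 1934, 2214 and 1762 CPM in aged libraries. The ages overlapped, and the difference of 0.21 ± 0.09 did not pass (adjusted p = 0.194, edgeR). In endothelial cells the aged libraries, 1559 to 1823 CPM, lay just above the young ones, 1165 to 1554 CPM, with a difference of 0.35 ± 0.08 and an adjusted p of 0.0787. The summed macrophage genes, whose RNA is rich in Apoe, were at 12.8 to 25.9 CPM in young and 22.2 to 29.9 CPM in aged Icam1+ preadipocytes, and 1 of the 9 tested, Cd68, passed as higher (0.60 ± 0.12). Their part in the Apoe values was not tested.

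**Figure D3:**
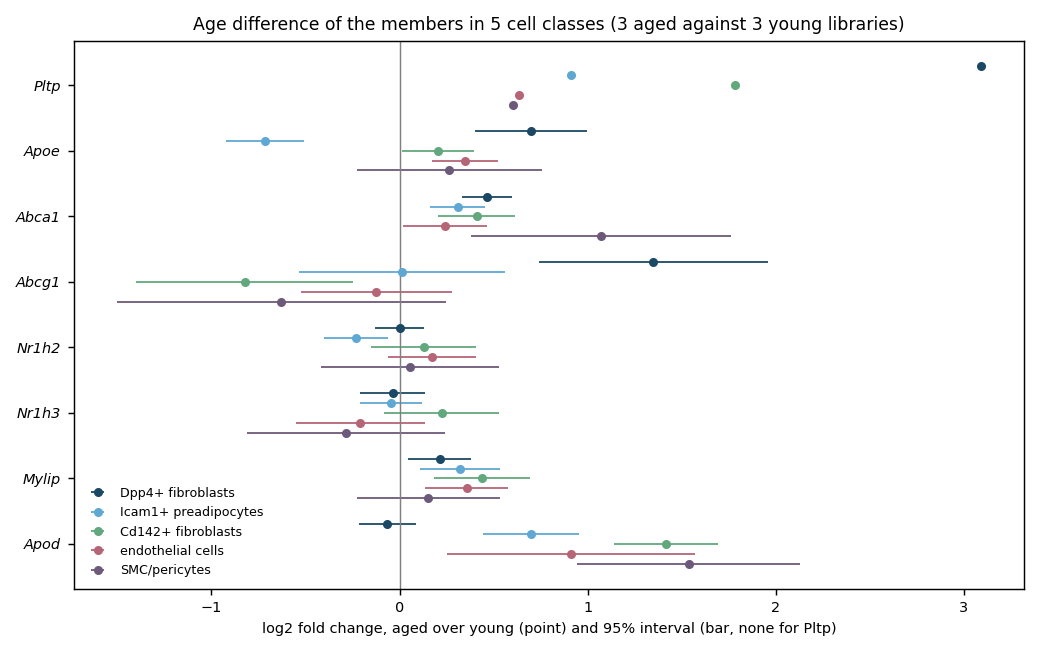
Log2 fold change of aged over young mice for each member in 5 cell classes, from fits over 3 aged and 3 young libraries, with bars for the 95% interval and none for Pltp, which chose the set. Abca1 lies above 0 in each class, while Apoe lies below 0 in Icam1+ preadipocytes. The intervals of Nr1h2 and Nr1h3 hold 0 in each class but that of Nr1h2 in Icam1+ preadipocytes, which lies below 0.

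The difference between classes was tested in 1 fit over the 18 sums of the ASPC classes. Apoe was among the genes whose age effect differed between Icam1+ preadipocytes and Dpp4+ fibroblasts, by -1.43 ± 0.22 on the log2 scale (adjusted p = 0.00183, edgeR), where 2.36% of 14336 genes passed, and its Dpp4+ side is the low level described above. Apod also passed there, by 0.77 ± 0.19 (0.0469), a call that was lost in 7 of 13 alternatives, among them each fit without 1 library but that without the aged 3D one. Between Cd142+ and Dpp4+ fibroblasts 0.572% of genes passed, among them Apod with 1.48 ± 0.20 (0.00107) and Abcg1 with -2.22 ± 0.41 (0.0164). The Abcg1 difference was lost without any 1 of the young 3D, young 14D, aged TN and aged 3D libraries and with thinned cells. Between Cd142+ fibroblasts and Icam1+ preadipocytes 0.614% of genes passed and none of the 7 members did, with Apoe nearest at 0.94 ± 0.22 (0.0669). That difference passed in 6 of 13 alternatives, Leiden clusters (0.0165), the stricter gate (0.0303), thinned cells (0.0342) and the fit without the aged 14D library (0.00148) among them, and over all 13 it ranged from 0.74 to 1.09. EdgeR counted 1487 genes at an unadjusted p under 0.05 there. The same difference for Pltp was -2.19 between Icam1+ preadipocytes and Dpp4+ fibroblasts.

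Mylip (chromosome 13, 45389742 to 45412022), the ubiquitin ligase, was at 45.4, 42.7 and 36.2 CPM in young and 71.1, 51.9 and 46.8 CPM in aged Cd142+ fibroblasts. The ages did not overlap there, and the difference was 0.44 ± 0.12 (adjusted p = 0.0376, edgeR). It rested on the TN pair in part, since it was 0.32 and did not pass without either TN library (0.206 to 0.213), and 5 other alternatives also lost it. In Dpp4+ fibroblasts and Icam1+ preadipocytes the differences of 0.21 ± 0.07 and 0.32 ± 0.09 did not pass (0.0859 and 0.0602). Each passed in 3 of 15 alternatives (edgeR). In Dpp4+ fibroblasts these were the fits without either 14D library (0.30, adjusted p = 0.00898 and 0.00917) and with low-count genes kept (0.0337). In Icam1+ preadipocytes they were the fits without either 3D library (0.46, 0.0371 and 0.0406) and with low-count genes kept (0.0105). Mylip was highest in endothelial cells, at 255 to 458 CPM, a range above all the other classes compared. The few lymphatic endothelial cells, which were not compared, held Mylip at 179 to 480 CPM.

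Apod (chromosome 16, 31296192 to 31314808) was the member with the largest tested rise in Cd142+ fibroblasts. Its levels there were 802, 1044 and 533 CPM in the young TN, 3D and 14D libraries and 2896, 2438 and 1195 CPM in the aged ones. Icam1+ preadipocytes gave 408, 360.3 and 220.3 CPM in young and 733, 453 and 417 CPM in aged mice. Dpp4+ fibroblasts gave 395, 339 and 218 CPM in young and 339, 339 and 222 CPM in aged mice. Aged libraries lay above all young ones in the first 2 classes and among them in Dpp4+ fibroblasts. The log2 fold change was 1.41 ± 0.13 in Cd142+ fibroblasts (adjusted p = 3.28e-05), 0.70 ± 0.11 in Icam1+ preadipocytes (0.0067) and -0.06 ± 0.07 in Dpp4+ fibroblasts (0.58, edgeR). In Cd142+ fibroblasts it held in each of 15 alternatives, from 1.19 to 1.58.

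At 2000 UMIs per cell, Apod was found in 53.6%, 53.6% and 38.8% of young and 66.2%, 69.4% and 56.0% of aged Cd142+ fibroblasts, beside 0.37% to 3.84% of endothelial cells. Cells with a UMI held a mean of 3.75 in young and 6.93 in aged mice, so both measures were higher. Apod was also higher in aged SMC/pericytes, at 39.0 to 104 CPM against 19.2 to 27.9 CPM, with a difference of 1.54 ± 0.28 (adjusted p = 0.0422, edgeR) on 159 UMIs. There 1 of the 7 members passed, beside 0.264% of 7189 genes, and the call was lost in 9 of the 13 alternatives that gave an adjusted p, with 0.29 by Leiden clusters. In endothelial cells 0 of the 7 passed, beside 0.702% of 10257 genes, while edgeR gave an unadjusted p under 0.05 for Apoe, Abca1, Mylip and Apod and DESeq2 called Apoe. Without either TN library Apoe (0.45 to 0.46), Mylip (0.51) and Apod (1.31) passed there, with adjusted p of at most 6.55e-05, 0.000368 and 0.0057 (edgeR).

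Of the 7, Abca1, Mylip and Apod passed the temperature test in Dpp4+ fibroblasts (5.08% of 13398 genes passed) and in Icam1+ preadipocytes (4.31% of 13637), and Abca1 and Apod in Cd142+ fibroblasts (1.26% of 10403). Pltp did not pass in any of the 3, with adjusted p of 0.57, 0.18 and 0.548 (edgeR), though in Icam1+ preadipocytes it passed without either TN library (0.000101 and 0.00431) and with low-count genes kept (0.0138). Without an age term the calls of Abca1, Mylip and Apod each missed the threshold.

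For Abca1 the lowest level was that after 14 days, but the fitted fall from TN passed on its own only in Dpp4+ fibroblasts. In the values given above, the 14D library of each age was the lowest of its 3 in each ASPC class, and the 3D library was the highest except in aged Dpp4+ fibroblasts. The fitted differences from TN in Icam1+ preadipocytes were 0.40 ± 0.08 at 3 days (adjusted p = 0.0247, edgeR) and -0.22 ± 0.08 at 14 days (0.246). In Dpp4+ fibroblasts they were 0.01 ± 0.07 (0.932) and -0.49 ± 0.07 (0.0122), and in Cd142+ fibroblasts 0.09 ± 0.11 (0.802) and -0.52 ± 0.12 (0.139). Both differences of a class are against the same TN libraries. The temperature test gave adjusted p of 0.00818, 0.0125 and 0.0396 in Dpp4+, Icam1+ and Cd142+ cells (edgeR). In Icam1+ preadipocytes it was 0.0998 to 0.146 without either 3D library, and in Cd142+ fibroblasts 0.0898 without the young 14D library and 0.123 by DESeq2.

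Apod was likewise lowest at 14 days in each class and age. Its fitted differences between 14D and TN were -0.73 ± 0.08, -0.85 ± 0.14 and -0.95 ± 0.15 in Dpp4+, Icam1+ and Cd142+ cells, with adjusted p of 0.00426, 0.0291 and 0.0125 for temperature (edgeR). Mylip fell by 0.45 ± 0.09 in Dpp4+ fibroblasts and by 0.70 ± 0.11 in Icam1+ preadipocytes from TN to 14D (temperature adjusted p = 0.0479 and 0.0292). The Mylip call in Dpp4+ fibroblasts was lost without 4 of the 6 libraries taken singly (all but the young TN and young 14D), with RLE factors (0.0516) and with thinned cells (0.0574). In Icam1+ preadipocytes the calls of Mylip (0.0543) and Apod (0.0618) were lost with high doublet scores left out.

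Apoe, in contrast, was fitted 0.48 ± 0.11 higher at 3D and 0.44 ± 0.11 higher at 14D than at TN in Icam1+ preadipocytes, and the temperature test missed the threshold (0.0728, edgeR), while the 3D difference taken alone had an adjusted p of 0.045. The temperature test passed in 5 of 15 alternatives, with 0.00132 by DESeq2. In Dpp4+ fibroblasts, where Apoe is at the low level described above, the test gave 0.0615 and passed in 9 of 15 alternatives, with 0.321 by DESeq2. In Cd142+ fibroblasts it passed in 0 of 15, with 0.414 by edgeR and 0.475 by DESeq2, and its unadjusted p was 0.0447.

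**Figure D4:**
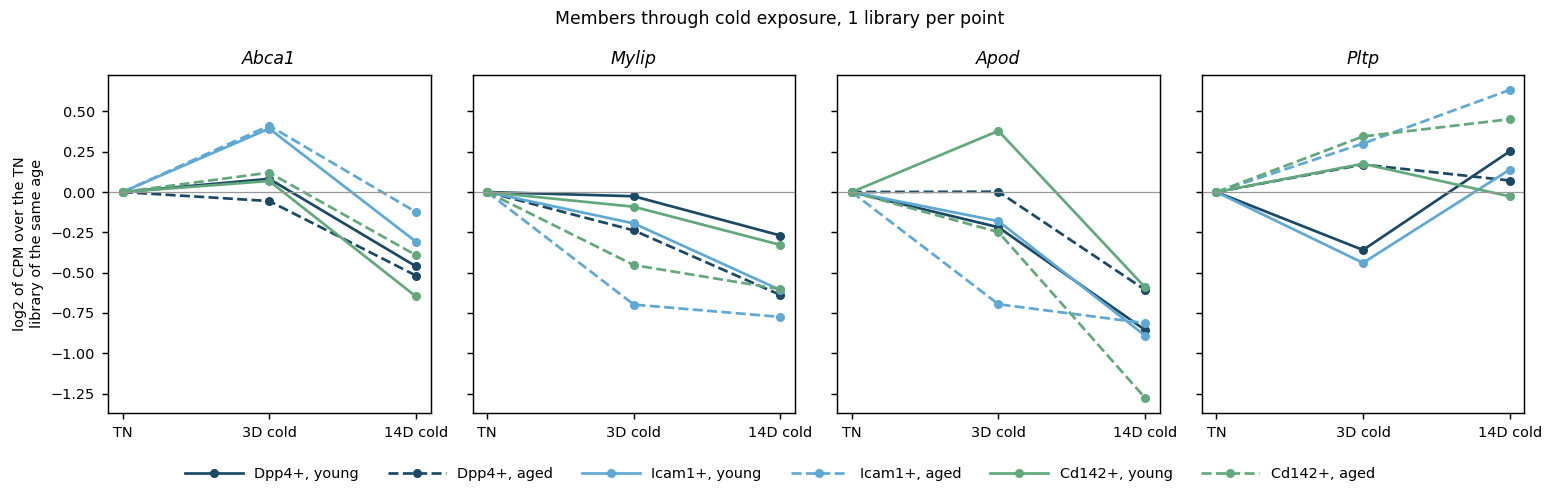
Log2 of the CPM in each library over that in the TN library of the same age for Abca1, Mylip, Apod and Pltp, with solid lines for young and dashed lines for aged mice and 1 colour per ASPC class. Abca1, Mylip and Apod are below 0 at 14D cold in each class and age. Pltp is above 0 at 14D cold in all but young Cd142+ fibroblasts and goes both ways at 3D cold.

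Over the 6 classes with at least 20 cells in each library, the members differed in where they were highest. Pltp and Apoe had their highest mean in immune cells (564 ± 317 and 5201 ± 3088 CPM, SD over 6 libraries), though both ranges overlapped those of Cd142+ fibroblasts (353 ± 220.4 and 1838 ± 230.4 CPM). Apoe was lower in SMC/pericytes (186 ± 48.0 CPM) and Dpp4+ fibroblasts (70.8 ± 29.5 CPM) than in every library of Icam1+ preadipocytes. Abcg1 had its highest means in immune (79.1 ± 42.5 CPM) and endothelial cells (32.3 ± 6.39 CPM), whose ranges overlapped. Nr1h2 differed least among classes, from 31.1 ± 3.54 CPM in Icam1+ preadipocytes to 67.1 ± 6.57 CPM in endothelial cells. Mean Apod was 309 ± 71.8 CPM or more in the ASPC classes and 45.7 ± 32.6 CPM or less in the other 3. The few Schwann cells, 14 to 38 in a library and outside this order, held Apoe at 4126 to 7486 CPM and Apod at 182 to 2391 CPM.

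**Figure D5:**
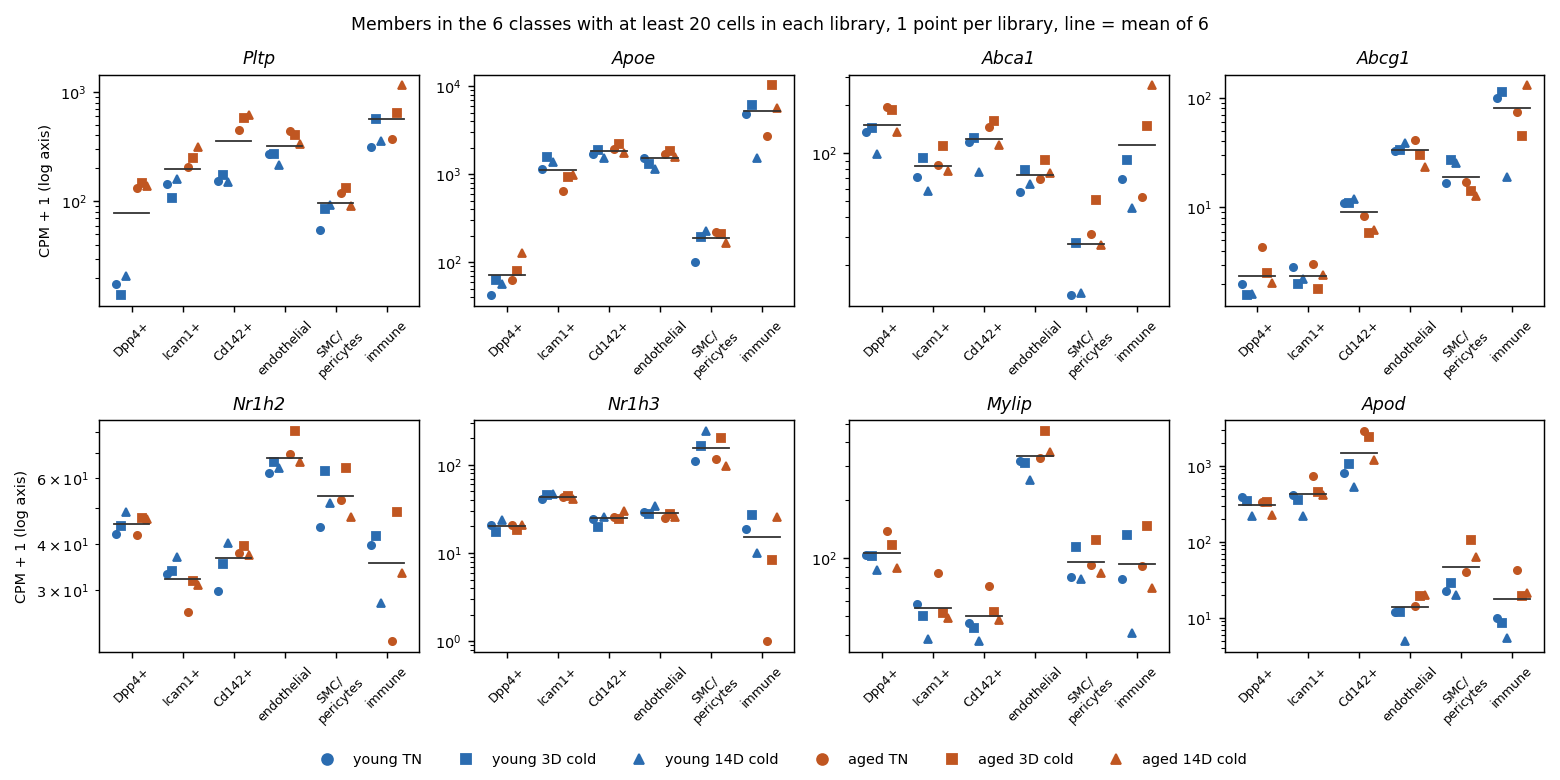
CPM + 1 (log axis) of each member in the 6 classes with at least 20 cells in each library, with 1 point per library and a line at the mean of the 6. Nr1h3 is highest in SMC/pericytes, Mylip in endothelial cells and Apod in Cd142+ fibroblasts, while immune cells spread widely between libraries.

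The genes whose level was most like that of Pltp over the 18 ASPC sums, among 5546 genes of at least 20 CPM, were Gpnmb (r = 0.93), Capg (0.93), Cd9 (0.92), Hmcn2 (0.89) and Enpp5 (0.88). The most opposite were Nisch (-0.92), Agfg2 (-0.92) and Gfpt1 (-0.91). Of the members, Apoe had an r of 0.75, Apod of 0.62, Abcg1 of 0.52, Nr1h3 of 0.38, Abca1 of -0.06, Nr1h2 of -0.46 and Mylip of -0.49. These sums share 6 libraries and differ mostly by class, so the values describe level across classes and ages together. Apoe and Pltp were thus both high in Cd142+ fibroblasts and low in young Dpp4+ fibroblasts, although their age effects had opposite signs in Icam1+ preadipocytes.

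Other genes regulated by LXRs were counted in both directions. Of 15 such genes, 12 were tested in Dpp4+ fibroblasts, where 1 passed as higher and 4 as lower (median log2 fold change -0.12), 12 in Icam1+ preadipocytes (1 higher, 2 lower, median -0.25) and 10 in Cd142+ fibroblasts (0 higher, 2 lower, median -0.25). Of all genes, 7.54%, 6.74% and 4.1% passed as higher and 8.17%, 5.62% and 4.25% as lower in these classes, and no test set the list against them. Smpdl3a, a phosphodiesterase, was higher by 0.29 ± 0.06 in Dpp4+ fibroblasts and by 0.33 ± 0.06 in Icam1+ preadipocytes (adjusted p = 0.00979 and 0.0101, edgeR). Scd2, a fatty acid desaturase, was lower in the 3 classes, by -0.48 ± 0.12, -0.73 ± 0.09 and -0.48 ± 0.12 (0.0245, 0.00239 and 0.0304). Without either 3D library the calls of Smpdl3a in both classes and of Scd2 in both fibroblast classes were lost, and DESeq2 also lost the latter. For Srebf1, named for its role as the LXR target that drives lipogenesis, the values were -0.13, -0.16 and -0.13 and did not pass. In Cd142+ fibroblasts edgeR called 0 as higher, and none of the 10 had a positive difference but Smpdl3a (0.16 ± 0.09).

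LXR partners and coregulators passed in 0 of 7 in Dpp4+ fibroblasts, and 2 of 8 in Icam1+ preadipocytes and 1 of 7 in Cd142+ fibroblasts were lower. Nrip1, a corepressor of nuclear receptors, was the gene called in both, at -0.32 ± 0.07 and -0.54 ± 0.09 on the log2 scale. Of the enzymes that make or break down oxysterols and bile acids, 1 passed, Cyp27a1 in Icam1+ preadipocytes (0.35 ± 0.06, adjusted p = 0.0102, edgeR), of 5, 6 and 3 tested. Lipocalin relatives of Apod, of which 2, 2 and 1 were tested, gave 1 call in the ASPC classes, Rbp4 in Cd142+ fibroblasts (-0.66 ± 0.15), opposite to Apod. In Dpp4+, Icam1+ and Cd142+ cells, 7.54%, 6.74% and 4.1% of all genes passed as higher and 8.17%, 5.62% and 4.25% as lower. No test set these lists against those shares. The Icam1+ calls of Nrip1 and Cyp27a1 were lost without either 3D library, and that of Rbp4 by DESeq2 and by Leiden clusters.

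Genes of cholesterol synthesis are driven by SREBP2 when sterols are low. In Dpp4+ fibroblasts 1 of 10 passed, in Icam1+ preadipocytes 5 and in Cd142+ fibroblasts 3, all higher in aged mice, with medians of -0.10, 0.24 and 0.19. Beside the 7.54%, 6.74% and 4.1% of all genes that were higher, the 1 of 10 in Dpp4+ fibroblasts was near the background, and only 2 of the 10 had a positive difference there. Insig1, the sterol sensor that retains SREBPs, passed in the 3 classes (0.27 ± 0.07, 0.51 ± 0.07 and 0.51 ± 0.12). Its call in Dpp4+ fibroblasts was lost without either TN library, and that in Cd142+ fibroblasts without either 14D library and by DESeq2.

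Of the genes that handle cholesterol in lysosomes and inside cells, 1 of 12, 2 of 12 and 1 of 11 passed, all as higher, with medians of 0.10, 0.06 and 0.16. These counts were near the background of 7.54%, 6.74% and 4.1% of all genes that were higher. Nceh1, a cholesterol ester hydrolase, passed in the 3 classes, with log2 fold changes of 0.80 ± 0.07, 1.35 ± 0.10 and 1.40 ± 0.25, of which the last was lost with the stricter gate and with thinned cells. In Icam1+ preadipocytes it stood at 5.23 ± 1.71 CPM in young and 13.2 ± 3.46 CPM in aged mice (SD, n = 3). Among the 10 neighbours of Pltp and Apoe on the chromosome, only Neurl2, named after its values were seen, passed, in Dpp4+ fibroblasts (0.842 CPM young, 1.60 CPM aged) and Icam1+ preadipocytes (0.612 and 1.25 CPM).

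RNA of other cell types was followed beside these results. Adipocyte genes passed as higher in 4 of 8, 4 of 8 and 1 of 2 tested in Dpp4+, Icam1+ and Cd142+ cells, Car3 and Cfd among them, with sums of 10.4 to 14.6 CPM in young and 21.4 to 38.4 CPM in aged Dpp4+ fibroblasts. Macrophage genes passed in 0 of 8, 1 of 9 and 0 of 3, and their sum in Dpp4+ fibroblasts was 12.7 to 22.1 CPM in young and 21.5 to 23.8 CPM in aged libraries. Red blood cell genes passed in 5 of 5, 0 of 5 and 0 of 4, Hbb-bt (4.66 ± 0.32) and Hbb-bs (3.98 ± 0.70) being the largest. Genes induced by dissociation passed in both directions, 3 higher and 2 lower of 10 in Dpp4+ fibroblasts, 2 and 0 in Icam1+ preadipocytes and 2 and 1 in Cd142+ fibroblasts, with Nr4a1 higher in the 3 classes (0.51 to 0.65) and Dnajb1 lower in both fibroblast classes (-0.46 and -0.52). Of all genes, 7.54%, 6.74% and 4.1% passed as higher and 8.17%, 5.62% and 4.25% as lower in these classes. No test set these lists against those shares. The part of these RNAs in the differences of the members was not tested.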

How the data were processed

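The authors counted UMIs per gene and cell with Cell Ranger 3.1.0 on mm10, and the deposited matrices hold whole-number UMI counts, 1 matrix for each of 6 libraries. The members and gene lists were chosen with earlier results of these data known. Cells with more than 200 genes and within 3 median absolute deviations of their library in log UMIs, log genes and (upper side) mitochondrial percent were kept. No doublets were removed, and leaving out the 9.12% of cells with a high doublet score was an alternative. The study's own cell annotation was not used here, so classes were rebuilt from marker gates and may differ from the study's. Counts were summed per library and class and tested with edgeR 4.0.16 (R 4.3.3, quasi-likelihood F test, TMM, terms for temperature and age, 2 residual degrees of freedom), with Benjamini-Hochberg adjustment over all genes. A gene passed at an adjusted p under 0.05. Age effects were compared between classes in 1 fit of 18 sums with a library block. Named genes were the 8 members, at most 2 called genes per list and direction among those called in the most ASPC classes with a mean of at least 5 CPM, and the 5 genes most like and 3 least like Pltp. The alternatives were DESeq2 1.42.0, RLE factors, fits that kept low-count genes, fits that dropped the temperature or the age term, Leiden clusters, a stricter gate, thinning to 2000 UMIs, fixed cell limits and each library left out. Whether UMI counting used strand is not given in the sources used here. The list of lipoprotein receptors and uptake genes is not reported here.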

Additional observations from a re-analysis of the deposited data

Results flagged for a closer look

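In the fit over the 18 ASPC sums, 4 age effects of the members other than Pltp differed between classes (edgeR, adjusted over all genes, 3 aged and 3 young libraries). Of all 14336 genes, 2.36% differed between Icam1+ preadipocytes and Dpp4+ fibroblasts, 0.572% between Cd142+ and Dpp4+ fibroblasts and 0.614% between Cd142+ fibroblasts and Icam1+ preadipocytes. For Apoe, Icam1+ preadipocytes minus Dpp4+ fibroblasts gave -1.43 ± 0.22 on the log2 scale (adjusted p = 0.00183), with the aged library lower at each temperature in the first class and higher at each in the second. The difference ranged from -2.13 to -1.23 and passed in 13 of 13 alternatives. Its Dpp4+ side rests on low levels, with a share of cells below that in SMC/pericytes in every library but the aged 14D one. These are read neither as expression in Dpp4+ fibroblasts nor as its absence, which was not tested. For Apod it was 1.48 ± 0.20 between Cd142+ and Dpp4+ fibroblasts (0.00107), which also passed in 13 of 13, and 0.77 ± 0.19 between Icam1+ preadipocytes and Dpp4+ fibroblasts (0.0469), which passed in 6 of 13. For Abcg1 it was -2.22 ± 0.41 between Cd142+ and Dpp4+ fibroblasts (0.0164), on 144 and 195 UMIs, and passed in 8 of 13.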

How the results depend on the processing

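With 1 library per age and temperature, 3 libraries stand for each age, and each temperature has 1 library of each age. The p-values of the age and temperature fits rest on 2 residual degrees of freedom before moderation. The fit of 18 sums has 8, from classes cut from the same 6 libraries. Low genes such as Abcg1 are limited by depth. The temperature term pairs the young and the aged library of each temperature, and the fit with no temperature term is the one without that pairing. The cause of each change below was not tested.

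The number of genes called for age changed as follows. In Dpp4+ fibroblasts (2104) DESeq2 gave 1274, no temperature term 702 and thinned cells 1244, and leaving out a library gave 1265 to 1953, the lowest without a 3D library. In Icam1+ preadipocytes (1685) these were 1004, 223, 899 and 555 to 2214, again lowest without a 3D library. In Cd142+ fibroblasts (869) DESeq2 gave 300, no temperature term 347, Leiden clusters 1397 and the stricter gate 573. In endothelial cells (72) DESeq2 gave 30, keeping low-count genes 365, no temperature term 2, Leiden clusters 109, fixed cell limits 131 and leaving out a library 44 to 551, the highest without a TN library. In SMC/pericytes (19) the same settings gave 11, 124, 6, 41 and 113 and 3 to 257 (highest without a TN library), the stricter gate 113, thinned cells 75 and doublets left out 5.

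For temperature, no filter gave 2138, 1758 and 494 genes in Dpp4+, Icam1+ and Cd142+ cells (680, 588 and 131). Without an age term edgeR called 0 in each, with 1004, 1032 and 339 at an unadjusted p under 0.05. Thinned cells gave 435 in Dpp4+ and 207 in Cd142+ fibroblasts, Leiden clusters 939 in Icam1+ and 325 in Cd142+ cells, and DESeq2 76 and the stricter gate 44 in Cd142+ fibroblasts. Leaving out a library gave 301 to 2070, 110 to 1996 and 210 to 610, so each of the 6 libraries moved each count by over 1.5 times.

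For the age effect between classes (Icam1+ minus Dpp4+ 339, Cd142+ minus Dpp4+ 82, Cd142+ minus Icam1+ 88), no filter gave 826, 404 and 443, Leiden clusters 594, 136 and 232, thinned cells 180, 51 and 57, and leaving out a library 150 (without the young 14D library) to 298, 40 to 98 and 35 to 81.

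By Leiden clusters the log2 ratio of Icam1+ over Dpp4+ cells for Apod turned to -0.18 from 0.43. The ratios over Dpp4+ fibroblasts in Cd142+ fibroblasts were then 5.37 for Apoe, -0.37 for Abca1 and 2.90 for Apod, and Apod was 3.07 over Icam1+ preadipocytes. With thinned cells that of Nr1h3 in Cd142+ over Dpp4+ fibroblasts was 0.53.

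Without thinning, the aged minus young difference in the share of cells with a UMI, in percentage points for Dpp4+, Icam1+ and Cd142+ cells, was 32.0, 8.92 and 25.7 for Pltp, 2.08, -4.90 and -3.62 for Abca1, 0.765, -0.293 and -4.10 for Abcg1, -6.13, -9.73 and -5.14 for Nr1h2, -3.23, -8.83 and -3.55 for Nr1h3 and -3.58, -2.62 and -1.33 for Mylip. It was -18.8 for Apoe in Icam1+ and -8.45 in Cd142+ cells, and -0.107 and 2.83 for Apod in these. By Leiden clusters it was 0.606 for Apoe and -0.657 for Abcg1 in Cd142+ fibroblasts.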
